A study of Mus musculus with 76 samples.

Results

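H3K27ac regions of the E17.5 diencephalon were compared between hs754-humanized and wild type mice outside chromosome 13, the chromosome that carries the edited locus. The members are regions merged from the peak lists of 3 humanized and 3 wild type replicates, each list cut to its 45039 peaks of highest -log10 q-value. Of 60555 merged regions, 27780 were members: 111 were called in 3 of 3 humanized lists and in no wild type list (humanized-exclusive, 0.183% of all regions), 333 in 3 of 3 wild type lists and in no humanized list (wild type-exclusive, 0.55%), and 27336 in all 6 lists (shared). Other regions were called in an incomplete set of lists.

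The humanized mice are homozygous for the human sequence of hs754, an enhancer with a CpG island in human, put in place of the mouse ortholog by CRISPR/Cas9 in C57BL/6J embryos, and the controls are homozygous wild type mice of that strain. Each E17.5 replicate pooled the diencephalon of 3 embryos of 1 litter, so a replicate is a litter and not a single animal. The series holds 76 samples, and the RNA, H3K4me3, CTCF and H3K27me3 samples of E17.5 and the H3K27ac samples of E11.5 serve here as readouts that the choice of regions did not use. The study's methods state that the H3K27ac antibody lot also binds acetylated lysine 5 of histone H2B, so the peaks may hold that mark as well.

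Acetylation of lysine 27 of histone H3 is laid down by the acetyltransferases p300 and CBP at active promoters and enhancers, and is removed by deacetylases. Promoter peaks tend to be broad and strong, while distal peaks mark enhancers, which are often weaker and differ more between tissues. The diencephalon holds the thalamus, habenula, prethalamus and hypothalamus, and in late gestation its neurons are largely born and are differentiating beside emerging astrocytes.

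The 6 lists were not alike. Outside chromosome 13 they held 45039 to 73872 peaks, and humanized 3 was the shortest, so all of its peaks were used, down to a -log10 q of 1.32, while the other lists stopped at 4.09 to 5.90. Its used peaks had a median fold enrichment over local background of 4.78, against 6.17 to 6.61 in the other 5 lists, and a median width of 610 bp against 964 to 1150 bp. It was the list most often missing alone: 1995 regions were called in every list but humanized 3, against 454 to 686 for any other list. Peak lists hold no read totals, so the depth behind these values is unknown, and the counts, features and tests that rest most on humanized 3 are given below with and without it.

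The sequences of 200 bases around the peak summits are shown for the regions that lead each set, to let their CpG content be seen beside the values. Coordinates are of mm39 (GRCm39), the plus strand is printed, and CpG dinucleotides are in capitals. The leading region of each exclusive set comes first, then the leading region of each set with no peak at all in the full lists of the other genotype, then the shared region with the lowest p in each direction. Windows in annotated untranslated regions were passed over, which is why Etv6 stands here in place of a region in an exon of Arnt2.
Tnp1 (chr1:73165332-73165531): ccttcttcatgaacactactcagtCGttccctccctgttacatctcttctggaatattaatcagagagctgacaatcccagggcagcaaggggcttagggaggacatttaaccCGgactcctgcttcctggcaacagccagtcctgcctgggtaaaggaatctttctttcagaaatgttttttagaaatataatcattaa
Sox5 (chr6:144400540-144400739): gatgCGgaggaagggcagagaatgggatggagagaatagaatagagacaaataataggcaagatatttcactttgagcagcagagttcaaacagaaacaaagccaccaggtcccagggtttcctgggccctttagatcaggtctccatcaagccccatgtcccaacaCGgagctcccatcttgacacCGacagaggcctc
Etv6 (chr6:134166123-134166322): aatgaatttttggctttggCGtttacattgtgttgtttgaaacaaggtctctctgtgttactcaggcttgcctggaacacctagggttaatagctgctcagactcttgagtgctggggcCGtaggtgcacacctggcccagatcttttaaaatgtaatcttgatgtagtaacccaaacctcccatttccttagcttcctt
Gm17655 (chr5:110205681-110205880): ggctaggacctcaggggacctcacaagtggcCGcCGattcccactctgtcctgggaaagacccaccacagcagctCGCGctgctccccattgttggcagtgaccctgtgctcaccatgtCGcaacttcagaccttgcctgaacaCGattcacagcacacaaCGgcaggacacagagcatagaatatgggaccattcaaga
Elp3 (chr14:65789330-65789529): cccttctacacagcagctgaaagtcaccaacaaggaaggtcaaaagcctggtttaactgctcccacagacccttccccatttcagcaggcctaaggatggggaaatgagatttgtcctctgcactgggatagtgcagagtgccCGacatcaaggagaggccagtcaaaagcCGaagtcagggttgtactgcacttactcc
Sdhaf3 (chr6:6956071-6956270): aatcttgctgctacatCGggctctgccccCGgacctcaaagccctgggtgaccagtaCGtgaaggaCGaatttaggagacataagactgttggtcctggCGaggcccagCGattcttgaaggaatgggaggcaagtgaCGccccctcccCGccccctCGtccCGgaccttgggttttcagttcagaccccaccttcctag
These windows held 2, 3, 2, 7, 2 and 10 CpGs, in that order. Over all such windows the median was 3 CpGs in humanized-exclusive, 3 in wild type-exclusive and 5 in shared regions, and 10 or more CpGs were found in 1.80%, 4.50% and 35.3% of them, against 18.3% of all merged regions. The dinucleotide was searched as CG, which reads the same on both strands, and at least 1 was present in 91.7% of all windows.

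By raw count, regions called in every list of 1 genotype and in no list of the other were the rarest class. Regions called in a single list numbered 6274 for the humanized and 7589 for the wild type mouse, and regions called in 2 lists of 1 genotype alone 886 and 1598. A further 1630 regions were called in 2 humanized lists and 1 wild type list, and 2330 in the reverse pattern. These classes are not alike, because 3 lists of 1 genotype can be met in 1 way only. Calls in 2 lists of 1 genotype and 1 of the other can be met in several ways. The raw counts therefore do not show that exclusive calls are rarer than mixed calls in 3 lists. The similarity of 2 lists did not follow genotype: the mean share of regions that 2 lists had in common, of those in either, was 0.701 in 6 pairs within a genotype (0.675 to 0.715) and 0.700 in 9 pairs between genotypes (0.672 to 0.716).

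**Figure D1:**
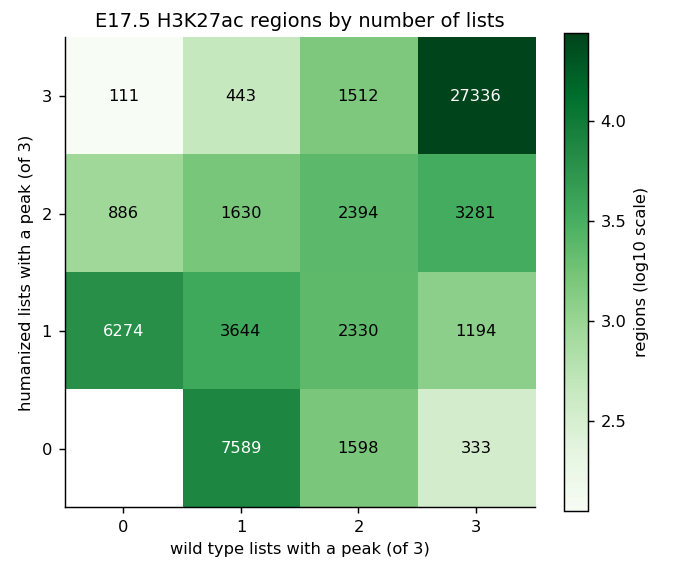
Number of merged H3K27ac regions by how many of the 3 humanized lists (vertical axis) and of the 3 wild type lists (horizontal axis) called them, with shading on a log10 scale. The corner with 3 humanized and 0 wild type lists holds 111 regions, the opposite corner 333, and the corner with all 6 lists 27336.

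The excess of wild type-exclusive over humanized-exclusive regions was largely absent without humanized 3. With that list left out and 59890 peaks taken from each of the other 5, 767 regions were called in both remaining humanized lists and no wild type list, and 765 in all wild type lists and neither humanized list. With the number of peaks kept at 45039, an alternative chosen after seeing the data, the counts were 541 and 568. With any other list left out, wild type-exclusive regions stayed the more numerous, with 802 to 954 against 239 to 347. Leaving out a humanized list asks for 2 humanized calls but 3 wild type calls, so the counts of both sets follow unlike rules. Under that same rule, humanized-exclusive and wild type-exclusive regions numbered 347 and 836 without humanized 1, and 337 and 802 without humanized 2.

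**Figure D2:**
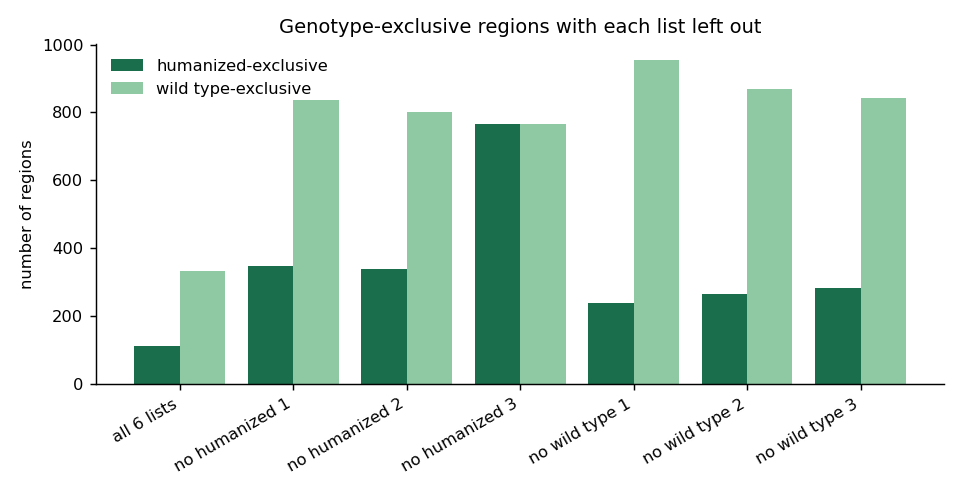
Number of humanized-exclusive (dark green) and wild type-exclusive (light green) regions with all 6 lists and with each list left out in turn. The counts are 111 and 333 with all lists, and 767 and 765 without humanized 3.

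Exclusive regions were weak and narrow. Their median fold enrichment was 4.25 in the humanized-exclusive set, where the highest value was 6.80, and 4.63 in the wild type-exclusive set, where it was 8.40, against a median of 9.79 and a highest value of 98.1 for shared regions. Their median widths were 632 and 793 bp, against 1885 bp for shared regions. By list, the humanized-exclusive regions had a median of 4.33, 4.45 and 3.70 in humanized 1, 2 and 3, and the wild type-exclusive regions 4.44, 4.63 and 4.67 in wild type 1, 2 and 3. These values were close to the median of 4.44 for 3960 regions called in 3 lists drawn from both genotypes.

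Exclusive regions also lay near the end of each list. This is partly built into the rule, because the lists were cut by the same -log10 q that ranks them here. Ranks of regions called in 3 lists of both genotypes were not read. Ranked by -log10 q, their median ranks were between 35356 and 37859 of 45039, and between 80.2% and 84.7% of them lay past rank 30000 in each list of their own genotype. For shared regions that share was 7.85% to 13.1%. In no list did a humanized-exclusive region rank among the first 20000 peaks, and a single wild type-exclusive region did so in wild type 1 and in wild type 3. The -log10 q of the last peak used equalled that of the first peak left out in each of the 5 lists that were shortened, so the boundary falls within ties.

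Most exclusive regions had a peak in the full lists of the other genotype, past this boundary. Of 111 humanized-exclusive regions, 107 overlapped a peak in at least 1 full wild type list: 66 in wild type 1, 86 in wild type 2 and 91 in wild type 3. Of 333 wild type-exclusive regions, 268 overlapped a peak in a full humanized list, 194 in humanized 1 and 200 in humanized 2, while humanized 3 has no further peaks to give. These left-out peaks had median ranks of 51156.5 to 55938 in the wild type lists and 51417 and 51540 in humanized 1 and 2. In 60 of the 111 humanized-exclusive regions the highest left-out wild type fold enrichment was at or above the lowest humanized one, and this was so in 11 of the 333 wild type-exclusive regions. Without humanized 3, at the unchanged number of peaks, that contrast was smaller but kept its direction, with 59 of 541 and 14 of 568. Regions with no peak in the other genotype then numbered 41 and 84, in place of 4 and 65. The lowest value is then taken over 2 humanized or 3 wild type lists, so these counts are not strictly alike.

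The humanized-exclusive regions with the highest enrichment in their lowest list lay near genes of unrelated function. The leading region, chr1:73164844-73165841, lies 110 kb from the start of Tnp1, which encodes a transition protein of maturing sperm chromatin, and had fold enrichments of 5.004, 5.44 and 5.05 in humanized 1, 2 and 3. The left-out wild type peaks there stood at 2.94, 2.77 and 3.74, so the genotypes did not overlap although every list had a peak. The second, 95.4 kb from Ppp4r2, a regulatory subunit of protein phosphatase 4, stood at 5.004, 5.11 and 4.52 against 3.85, 3.27 and 3.01. The fourth lies in an exon of Osr1, a zinc finger factor of the early kidney and heart, with 4.33, 4.69 and 4.52 in the humanized lists and a single wild type peak of 3.64. The others of the first 10 were nearest to Dnah17 (an axonemal dynein), Smarcal1 (an annealing helicase of replication forks), U90926, Phykpl (a lyase of hydroxylysine breakdown), Mex3a (an RNA-binding protein), Tgfbr2 (a TGF-beta receptor) and Glul (glutamine synthetase of astrocytes), with humanized values of 4.25 to 5.75.

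Humanized-exclusive regions with no peak in any full wild type list numbered 4. They were nearest to Arnt2 (a bHLH-PAS factor needed for neuroendocrine cells of the hypothalamus), Etv6 (an ETS repressor), Pdlim2 (a PDZ and LIM domain protein) and Mtus1 (a microtubule-associated protein). The Arnt2 region, chr7:84010684-84011200 in an exon, had 4.14, 4.05 and 4.25, and the Etv6 region, in an intron, 4.10, 5.75 and 3.99. The Pdlim2 region, within 2 kb upstream of the gene, had 4.10, 4.65 and 3.70, and the Mtus1 region, in an intron, 4.33, 4.48 and 2.67. All 4 were thus weak peaks in each humanized list.

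The wild type-exclusive regions reached slightly higher values. The leading region, chr6:144400266-144401101 in an intron 244 kb from the nearest start of Sox5, a SoxD factor of neuronal and glial differentiation, had 6.75, 5.61 and 5.83 in wild type 1, 2 and 3, and a left-out peak of 3.68 in humanized 1. Another region at Sox5, 11.3 kb from a start, was humanized-exclusive, with 4.78, 4.27 and 3.37 against left-out wild type peaks of 3.66 and 3.03. The same gene thus carried regions of both sets. Zcchc18 on chromosome X, a zinc finger gene, had 5.60, 6.66 and 7.001 near it, against a humanized 1 peak of 2.74. The others of the first 10 were nearest to Flrt1 and Sorcs1 (a synaptic adhesion protein and a sortilin-type receptor of neurons), Pla2g2d (a secreted phospholipase), Gm17655, Rnf26 (a ubiquitin ligase), Rnaseh2b (an RNase H2 subunit), A430033K04Rik and Fam78b, with wild type values of 5.13 to 7.68. Of the 333, 65 had no peak in any full humanized list, among them the regions at Gm17655, Fam78b (7.68, 6.34 and 5.13) and the Rnf26 promoter (5.29, 5.61 and 6.53).

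**Figure D3:**
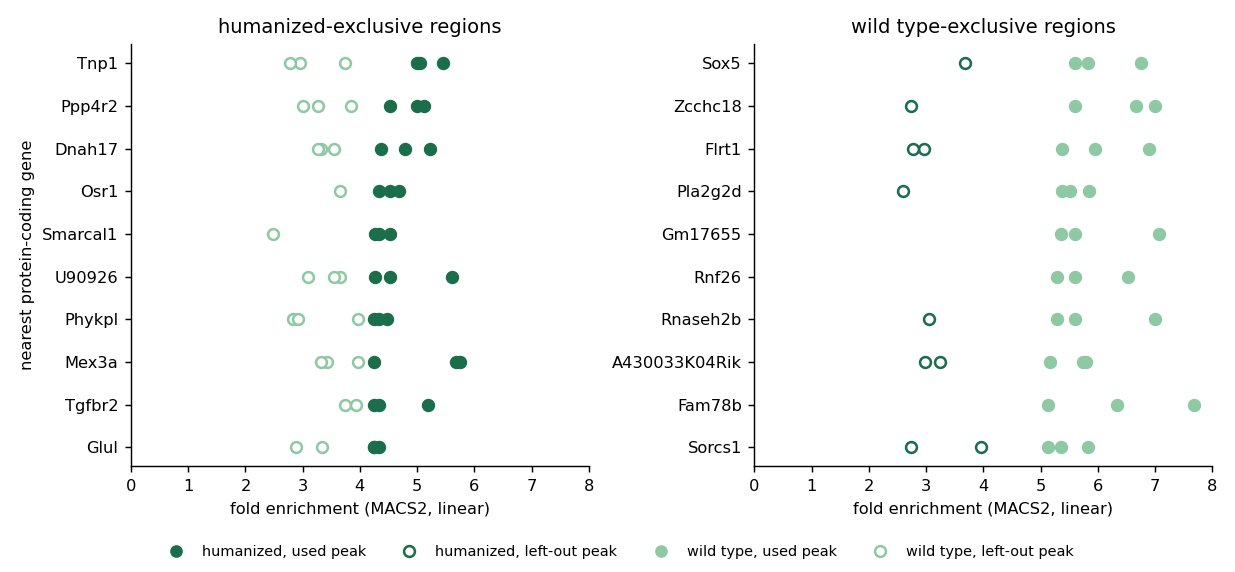
MACS2 fold enrichment (horizontal axis, linear) of the 10 leading regions of each exclusive set, named by the nearest protein-coding gene, with filled points for peaks used and open points for peaks of the other genotype that were left out of the equal-number lists. In the Tnp1 region the humanized lists sit at 5.004 to 5.44 and the left-out wild type peaks at 2.77 to 3.74.

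Exclusive regions were distal. Promoters, taken as the start of a protein-coding transcript and the 2 kb before it, held 8 of 111 humanized-exclusive regions (7.21%) and 17 of 333 wild type-exclusive regions (5.11%), against 40.8% of shared regions. Introns held 48.6% and 42.3%, and intergenic sequence 39.6% and 42.3%, against 24.1% and 26.5% of shared regions. The median distance to the nearest protein-coding start was 34.7 kb and 47.9 kb, against 9.29 kb for shared regions. Regions called in 3 lists of both genotypes lay in comparable places, with 6.69% at promoters and a median distance of 44.4 kb. A window of 200 bp with the base composition of a CpG island lay in 10 humanized-exclusive regions (9.01%) and 70 wild type-exclusive regions (21.0%), against 16.2% of those called in 3 lists of both genotypes and 58.0% of shared regions. Without humanized 3, at the unchanged number of peaks, such windows lay in 11.3% and 18.7%, promoters held 6.28% and 4.05%, and the median distances were 38.8 kb and 51.8 kb. These sets differ in width, and the part of width in this share was not tested.

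**Figure D4:**
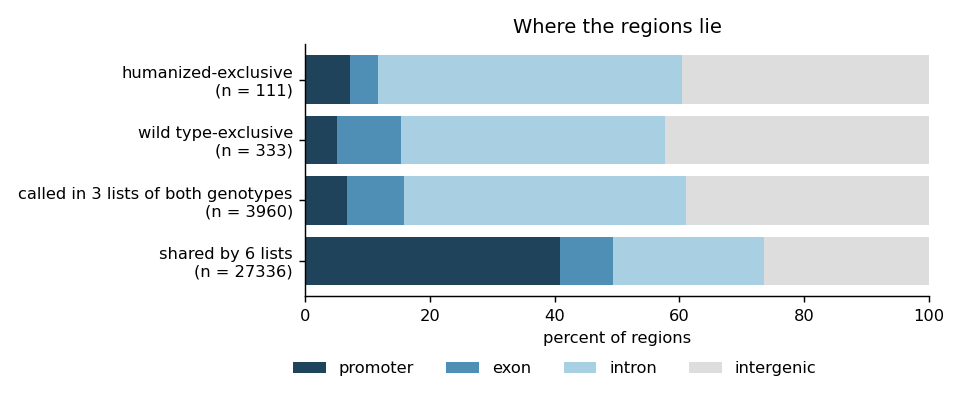
Percent of regions (horizontal axis) at promoters, in exons, in introns and between genes, for both exclusive sets, for regions called in 3 lists of both genotypes and for regions shared by 6 lists. Promoters make up 7.21%, 5.11%, 6.69% and 40.8%.

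The promoter regions of the exclusive sets were at the weak end too. In the humanized-exclusive set, the Slc6a13 promoter, of a GABA transporter of leptomeninges, had 4.11, 5.64 and 3.72 and a left-out wild type 2 peak of 4.15. The Kcnab2 promoter, of a potassium channel beta subunit, had 4.76, 4.06 and 5.05 against 3.08, 3.44 and 2.62. In the wild type-exclusive set, the Icam2 promoter, of an endothelial adhesion protein, had 4.90, 5.12 and 5.60 against 2.95 and 2.76 in humanized 1 and 2. The Slit1 region, upstream of an axon guidance ligand, had 4.94, 5.61 and 4.86 against a humanized 2 peak of 3.43. The C1ql2 promoter, of a secreted synaptic organizer, had 3.98, 4.88 and 4.43 and no humanized peak.

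Several exclusive regions near 1 gene were rare. Tcf7l2, an effector of Wnt signalling and a lead marker of thalamus and habenula, was nearest to 2 humanized-exclusive regions and 1 wild type-exclusive region among 63 regions nearest to it. The humanized-exclusive region at chr19:55842679-55843310, in an intron, had 3.98, 4.05 and 3.99 and a left-out wild type 3 peak of 2.35. The wild type-exclusive region at chr19:55833747-55834792, in the same gene, had 4.64, 5.12 and 4.92 against 3.65 and 2.76 in humanized 1 and 2. The second humanized-exclusive region, 109 kb away, had 3.81, 4.51 and 3.203 against 3.74, 3.66 and 3.95, and there the genotypes overlapped. No other gene had 2 humanized-exclusive regions, and 13 genes had 2 wild type-exclusive regions, the highest at Flrt1, Sorcs1, Maml3 (a Notch coactivator), Sohlh1, Akap7, Megf11, Tbl1xr1, Ddit4l, Ksr2 and Otol1. In all, 11 genes were nearest to regions of both sets, Tcf7l2 and Sox5 among them.

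Lists of regional and cell type genes met exclusive regions at shares near those of all merged regions. Of 1620 regions nearest to list genes, 2 were humanized-exclusive (0.123%, against 0.183% of all regions) and 8 wild type-exclusive (0.494%, against 0.55%). Without humanized 3, at the unchanged number of peaks, the counts were 13 of 541 humanized-exclusive and 12 of 568 wild type-exclusive regions. All regions near list genes were not counted in that setting, so these counts have no share of them to stand beside. Of 251 genes in 19 lists, Tcf7l2 was the gene with humanized-exclusive regions, and 8 genes had 1 wild type-exclusive region each. Among these were Tcf7l2, Olig3 (thalamic progenitors), Foxa2 and Lmx1b (floor plate and midbrain) and Cnp and Pdgfra (oligodendrocyte lineage). The Olig3 region, in an exon of the gene, had 5.13, 5.36 and 4.43 against left-out peaks of 3.29 and 3.77 in humanized 1 and 2. The Pdgfra region, 67.1 kb away, had 3.97, 3.90 and 4.09 and no humanized peak.

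The promoters of the list genes were read to check the labelled tissue. Of 11 thalamus genes outside chromosome 13, 10 had a promoter region in all 6 lists, and the exception was Olig3. The Tcf7l2 promoter stood at 47.6, 59.1 and 51.5 in the humanized and 34.7, 58.6 and 54.6 in the wild type lists. All 13 prethalamus and GABAergic genes and all 14 neuron genes had one too. Of 25 hypothalamus genes 12 did, and of its 7 peptide genes Agrp had one in all lists, at 32.3 to 45.7, while Avp, Oxt, Pomc, Trh, Sst and Gal had none in any list. The region at Agrp was assigned by nearness to the start of another gene, so its signal may not be that of Agrp. Of the neighbouring tissue lists, 11 of 13 telencephalon genes had a promoter region in all lists, and 13 of 17 midbrain and hindbrain genes, En1, En2, Pax2 and the Hox genes among them, had none. The microglia list had 7 of 10 and the blood list 8 of 9 genes with none, Csf1r, Cx3cr1 and the globins among them. A promoter region in all lists was found for 6 of 11 habenula, 11 of 14 astrocyte, 9 of 15 oligodendrocyte lineage, 13 of 14 progenitor, 6 of 12 endothelial and 2 of 13 choroid plexus and meninges genes, and Ttr, the defining choroid plexus gene, had none. In whole tissue, fewer cells of a type and less acetylation or RNA per cell cannot be told apart.

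Regions shared by all 6 lists were compared by their fold enrichment on the log2 scale, each list centred to its median, with limma and Benjamini-Hochberg adjustment. None of 27336 regions was called higher (0%) or lower (0%) in the humanized mouse, and the lowest adjusted p was 0.9995. At an unadjusted p under 0.05, 606 regions were higher and 604 lower, together 4.43% of all. In 1343 regions (4.91%) all humanized values lay above all wild type values, and in 1192 (4.36%) below. The log2 difference had a median of 0.01, its middle 90% of regions ran from -0.43 to 0.42, and 10 regions differed by more than 1. Without humanized 3 no region was called either, with 513 higher and 876 lower at that p. The test has a limited reach: in data simulated on these regions it called 28% of 2-fold and 89% of 4-fold changes.

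By placement the median log2 difference stayed near 0. It was -0.01 for 11145 promoters, 0.02 for 6593 introns, 0.02 for 7249 intergenic and 0.01 for 2349 exonic regions. On chromosome X it was -0.01 over 673 regions, and on chromosome 19 it was 0.00 over 844. All 9 listed genes around Btaf1 on chromosome 19 had promoter regions in all lists. Their log2 differences ran from -0.49 at Hhex to 0.54 at Ppp1r3c, with a median of -0.25, and none was called. In RNA, edgeR called none of these genes, but 2 were higher in the humanized mouse at an unadjusted p under 0.05 and 0 lower. They were Ide (log2 difference of 1.11, edgeR unadjusted p of 4.7e-04) and Btaf1 (0.95, p of 0.016), in a fit that did not pair the samples. The paper reports differential peaks on this chromosome, all inside known copy-number variants of the mouse line. It proposes that copy number differed between the genotypes in some comparisons. Whether the listed genes lie in these variants was not tested.

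The shared regions with the lowest p whose groups did not overlap are given as the nearest to a difference, although none was called. Among regions higher in the humanized mouse, an exonic region 40.8 kb from the nearest start, that of Elp3, the catalytic subunit of Elongator, had 13.1, 13.1 and 8.21 in humanized 1, 2 and 3, against 4.95, 3.81 and 7.86 in the wild type lists. Its log2 difference was 1.34 ± 0.26 (SE, n = 3 and 3), and limma gave an adjusted p of 0.9995. The Tox2 region (an HMG-box factor) had 6.96, 6.17 and 4.77 against 3.38, 3.52 and 4.25, a log2 difference of 0.93. The Rapgef5 region (an activator of Rap GTPases) had 10.6, 9.75 and 8.82 against 6.02, 3.796 and 6.17. The Tmcc3 region (a membrane protein of the endoplasmic reticulum) had 8.17, 7.68 and 7.18 against 3.195, 6.21 and 3.66. Of these 5, the Nacad region (a NAC-alpha domain protein of brain) was the one at a promoter and the strongest, with 58.3, 54.4 and 43.3 against 28.7, 42.4 and 29.99.

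Among regions lower in the humanized mouse, 3 of the 4 given here were promoters. The Sdhaf3 promoter, of an assembly factor of succinate dehydrogenase, had 6.89, 10.6 and 3.51 in the humanized lists against 17.8, 15.5 and 19.2 in the wild type lists, a log2 difference of -1.20 ± 0.28 (SE, n = 3 and 3; limma adjusted p of 0.9995). The Fpgt promoter, of a fucose salvage enzyme, had 19.2, 27.5 and 10.7 against 41.3, 42.9 and 48.1. The Ap5z1 promoter, of a subunit of the AP-5 adaptor, had 11.4, 9.32 and 8.63 against 25.3, 18.1 and 28.5. The intronic region of Abr, a regulator of small GTPases, had 4.49, 3.45 and 2.96 against 7.68, 8.18 and 8.80.

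**Figure D5:**
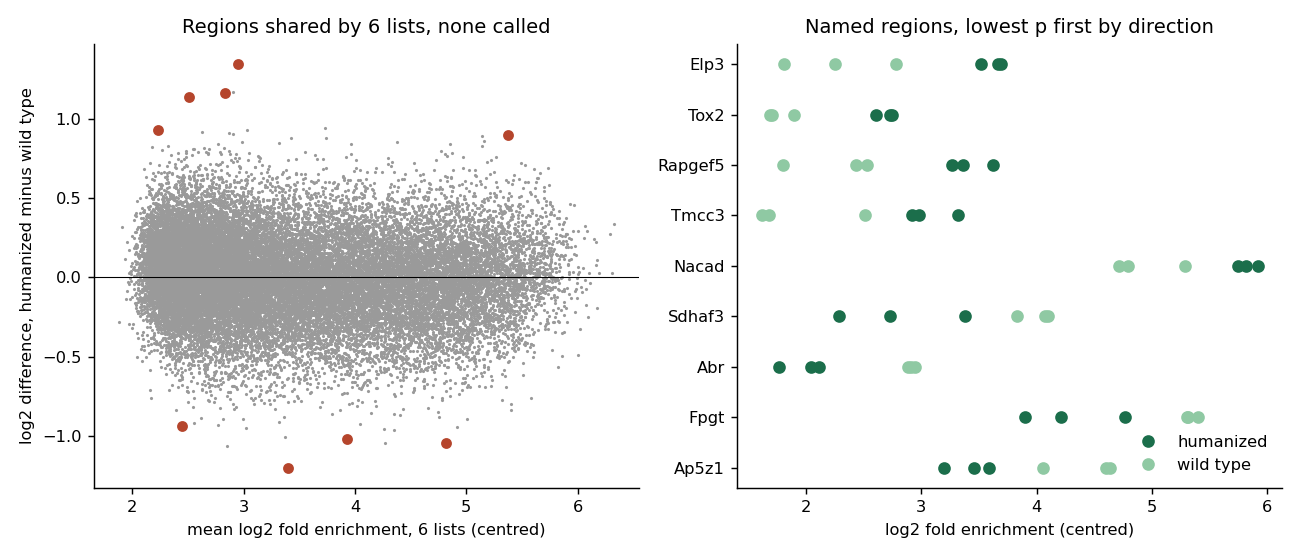
Left, log2 difference of fold enrichment (humanized minus wild type) against the mean log2 fold enrichment of the 6 centred lists for 27336 shared regions, with the 9 named regions in red. Right, centred log2 fold enrichment of those regions in each list, where the 3 humanized and the 3 wild type points do not overlap. The differences of the named regions run from -1.20 to 1.34.

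Promoters of the list genes were tested in the same fit. Of 144 with a region in all 6 lists, none was called, and the median difference was 0.04. The lowest was that of Tubb3, a neuronal tubulin, with 26.3, 30.8 and 26.3 in the humanized and 55.9, 56.4 and 58.2 in the wild type lists, a log2 difference of -0.78 with a limma adjusted p of 0.9995. The highest was that of Cdk1, a mitotic kinase, with 11.6, 9.75 and 7.26 against 10.5, 4.56 and 9.03, where the groups overlapped.

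Whether the exclusive regions differ between the genotypes in other libraries was asked with lists that had no part in choosing them. H3K4me3, a mark of promoters, overlapped 5, 5 and 8 of the 111 humanized-exclusive regions in the humanized lists and 5, 7 and 5 in the wild type lists, and 39, 37 and 40 against 38, 38 and 38 of the 333 wild type-exclusive regions. The differences in mean share were 0.300 and 0.200 percentage points (exact permutation tests, two-sided, p = 1 and p = 0.7). CTCF, the insulator protein, overlapped 5, 7 and 5 against 5, 7 and 4 humanized-exclusive regions and 37, 39 and 37 against 35, 42 and 39 wild type-exclusive regions (exact permutation p = 1 and p = 0.8). With all CTCF peaks of each list, the share of wild type-exclusive regions with a peak was 12.2% against 15.7% (exact permutation p = 0.1), and that of shared regions moved the same way, 36.5% against 41.6%. H3K27me3, the Polycomb mark, overlapped 7, 8 and 7 against 8, 6 and 6, and 31, 30 and 29 against 36, 26 and 32 (exact permutation p = 0.6 and p = 0.7). With 3 lists per genotype these tests cannot go below 0.1.

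Regions exclusive at E17.5 were found about as often in both genotypes at E11.5. H3K27ac peaks of E11.5 overlapped 22 and 18 humanized-exclusive regions in the humanized lists and 20 and 19 in the wild type lists, and 49 and 49 against 47 and 47 wild type-exclusive regions. The mean shares were 18.02% ± 2.55 and 17.6% ± 0.637 (SD, n = 2 each) in the first set and 14.7% and 14.1% in the second (exact permutation tests, two-sided, p = 1 and p = 0.3333, the smallest that 2 against 2 allows). Of shared regions, 57.5% and 56.8% had a peak at E11.5.

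Genes nearest to the exclusive regions were compared with RNA counts of 4 humanized and 4 wild type samples, of 16414369 to 24272569 reads on genes. With edgeR and Benjamini-Hochberg adjustment none of 18763 genes was called (0%), with 207 at an unadjusted p under 0.05, and DESeq2 called 1, the long noncoding RNA 4931408D14Rik on chromosome 19. That call departs from the paper, which also used DESeq2 and reports its only differentially expressed genes at E11.5. In simulated data edgeR called 23% of 2-fold and 80% of 4-fold changes. Of 98 tested genes nearest to humanized-exclusive regions, none was higher and 1 was lower at an unadjusted p under 0.05, with a median log2 difference of -0.04. Of 284 nearest to wild type-exclusive regions, 1 was higher and 5 were lower, with a median of -0.02. The median was -0.03 over all genes and -0.08 over protein-coding genes, to which the nearest genes were limited. Of 14371 protein-coding genes tested, 17 were higher and 129 lower at that p. The samples of the genotypes did not overlap for 1 of the 284 genes in the higher direction. That is 0.352%, against 0.437% of all genes and 0.251% of protein-coding genes tested. In the lower direction they did not overlap for 5 of the 284 (1.76%, against 0.799% and 0.877%). For the 98 genes near humanized-exclusive regions the counts were 0 and 0. The difference between these shares was not tested. These values are from the fit without pairs. With the replicate number as a block none of these genes was called either. At an unadjusted p under 0.05, 1 of 98 was higher and 1 lower near humanized-exclusive regions. Near wild type-exclusive regions 2 of 284 were higher and 8 lower. Over all 18763 genes that fit gave 405 higher and 312 lower, and the difference between these shares was not tested.

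The RNA levels of the genes named above are given as CPM (counts scaled to a common library total), and none was called. Tcf7l2 stood at 1231, 1274, 1054 and 1308 CPM in the humanized and 1324, 1203, 1142 and 973 in the wild type samples, which overlap. Sox5 stood at 95.3, 93.4, 70.2 and 84.7 against 51.5, 93.3, 67.4 and 65.6 CPM, a log2 difference of 0.31 with an edgeR adjusted p of 0.808. Osr1 was low, at 2.82 to 5.29 against 3.02 to 5.65 CPM, and Olig3 lower still, at 0.756 to 0.918 against 0.676 to 1.01 CPM. Ppp3cc, a catalytic subunit of calcineurin named by the study for these mice, had 29.2, 34.3, 34.7 and 43.4 against 28.4, 24.2, 25.5 and 26.7 CPM. Its groups did not overlap, and the log2 difference was 0.43 ± 0.18 (SE, n = 4 and 4; edgeR adjusted p of 0.808). These tests of Sox5 and Ppp3cc are from the fit without pairs. With the replicate number as a block, the log2 differences were 0.33 for Sox5 and 0.42 for Ppp3cc, both with an edgeR adjusted p of 0.599. The H3K27ac region at the Ppp3cc promoter, the 1 region nearest to that gene, was shared by all lists. It had a log2 difference of -0.39, in the other direction, and was not called. Transcripts of Elp3, Nacad and Glul stood apart in wild type 1, at 261, 163 and 465 CPM, against 115 to 126, 58.6 to 72.2 and 231 to 252 CPM in the other wild type samples.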

How the data were processed

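The values were the authors' peak lists and RNA counts. Per the labels and the study's methods, the authors mapped ChIP-seq reads with Bowtie2 2.4.2, using mm39 for wild type samples and an mm39 carrying the human hs754 for humanized ones. They dropped duplicates and reads with several matches, then ran MACS2 2.2.7.1 on every replicate by itself. The deposited lists give each peak's fold enrichment over local background (a ratio) and its q-value as -log10 q. The deposited RNA counts per gene are from STAR 2.7.9a, of which the unstranded column was used. Reads not counted for a gene, 48.1% to 58.4%, were left out. They include unmapped, multiply mapped and ambiguous reads as well as those on no gene. Members, gene lists and tests were chosen with earlier results of these data known.

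Peaks on chromosome 13 were left out. Each list was reduced to 45039 peaks by -log10 q (ties by fold enrichment), peaks were merged at 1 bp of overlap, and a list was present in a region where it had a peak. The nearest gene was that of the nearest start of a GENCODE vM39 protein-coding transcript. A CpG island-like window had 200 bp with at least 50% GC and a CpG ratio, observed to expected, of at least 0.6. Shared regions were tested on log2 of the highest fold enrichment per list with limma 3.58.1 (trend, R 4.3.3), without a pseudocount. RNA was tested with edgeR 4.0.16 (filterByExpr, TMM, quasi-likelihood), with DESeq2 1.42.0 as an alternative. Other marks were compared after cutting the lists of a mark to equal length, with exact permutation tests over lists. Genes were called at an adjusted p under 0.05.

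The genes named are those nearest to the 10 leading regions of each exclusive set, to the 5 shared regions per direction with the lowest p and no overlap of groups, up to 10 genes nearest to several exclusive regions, list genes near exclusive regions or with extreme values, and Ppp3cc. Some genes that meet this rule are not reported here. Genes of the regions with no peak in the other genotype, of promoters in the exclusive sets, and the genes followed in RNA were chosen after their values were seen. The RNA samples with the same replicate number deviated together (correlations of 0.583, 0.654, 0.111 and 0.283 over genes). The main RNA fit did not use these pairs, and a fit with the replicate number as a block was read beside it. The pairs come from the data and not from the labels. Scripts were tested on simulated data. Read depths of the ChIP libraries are not given by the lists. Other alternatives were all peaks, fewer peaks, ranking by fold enrichment, a -log10 q of at least 5, a larger overlap, no sex chromosomes, other centring, and each replicate left out.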

Additional observations from a re-analysis of the deposited data

Results flagged for a closer look

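The RNA of genes followed in the text was checked for single samples far from the other 3 of their group, in 18 groups of 4 samples, where chance marks about 1 group in 20. Wild type 1 stood above the other wild type samples for Elp3 (261 CPM), Glul (465 CPM) and Nacad (163 CPM). Humanized 1 stood above the other humanized samples for Nacad (78.4 CPM). The H3K27ac groups have 3 lists each and were not checked this way.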

How the results depend on the processing

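Counts of exclusive regions depended on the settings. Humanized-exclusive and wild type-exclusive regions numbered 22 and 1086 with all peaks of each list, 38 and 76 with the top 20000 peaks, 61 and 192 with the top 30000, and 9 and 751 with a -log10 q of at least 5. With 1 list left out in turn they ran from 239 to 767 and from 765 to 954, the 767 and the 765 both without humanized 3, and at the unchanged number of peaks without that list they were 541 and 568. Each such setting asks for calls in 2 lists of 1 genotype, which is easier to meet. Ranking by fold enrichment, the larger overlap and leaving out X and Y kept both counts within 1.5 times. Shared regions fell to 15351 with the top 20000 peaks and were 27913 to 36464 with a list left out.

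No shared region was called under any alternative to the limma fit, including each list left out. Without centring the median log2 difference was -0.25, and 14 regions were higher and 2274 lower at an unadjusted p under 0.05. For the H3K27ac lists the replicate numbers did not pair the samples (correlations of 0.009, -0.004 and -0.037 for numbers 1, 2 and 3), and the fit with the replicate block called 0 regions, with 590 higher and 587 lower at that threshold. For RNA the fit with the replicate block called 0 genes, so that the pairing changed no call, but at an unadjusted p under 0.05 it gave 405 genes higher and 312 lower, 717 in all, in place of 54 and 153. DESeq2 called 1 gene, and the other edgeR settings and samples left out called 0.

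Differences in the share of exclusive regions with another mark (percentage points, humanized minus wild type) changed sign under some alternatives in every set but E11.5 H3K27ac at wild type-exclusive regions, where they were 0.601 with each list left out and 0.901 with all peaks, and no test passed. With all peaks of each list they became -0.300 for H3K4me3 in both exclusive sets and -0.601 for H3K27me3 at humanized-exclusive regions. With 1 list left out they ran from -1.35 to 2.25 for E11.5 H3K27ac, from -0.601 to 0.901 for H3K4me3 and from -0.300 to 1.05 for CTCF at humanized-exclusive regions, and from -0.851 to 0.200 for CTCF and from -1.20 to 0.300 for H3K27me3 at wild type-exclusive regions. The cause was not tested.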

Other observations

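Chromosome 7 held 11 of the 111 humanized-exclusive regions (9.91%) and 10 of the 333 wild type-exclusive regions (3.00%), beside 6.12% of all merged regions, and chromosome X held 1 and 5. A pair of wild type-exclusive regions at Sohlh1, a factor of germ cell development, lay within 1.20 kb of each other. These were picked after the counts had been seen, and no test was made of them.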
